A study of Bubalus bubalis with 6 samples.

Results

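Of 110915 autosomal array probes with measurable input DNA in every sample, 228 (0.206%) were enriched in sperm of all 6 buffalo bulls studied. Enriched here means a raised ratio of DNA bound by an antibody against methylated cytosine to input DNA. Methylation at each of these probes was not shown separately. The samples were cryopreserved semen of Bubalus bubalis, 3 bulls recorded as high fertile (HF2, HF3 and HF5) and 3 as subfertile (SF1, SF4 and SF5), with 1 array per bull. Sonicated sperm DNA was immunoprecipitated with an antibody against 5-methylcytosine (meDIP), and the precipitated DNA (IP, Cy5) was hybridised together with the same bull's input DNA (Cy3) on a CpG island and promoter array. The study asked how sperm methylation differs between the fertility groups. The labels give no age, breed or fertility record, and every array had the same dye orientation. A probe counted as enriched when its log2(IP/input), after subtraction of the array's median over all probes, was 0.5 or more in every bull. These values chose the probes, so they are given as a description and the enrichment itself was not tested. The rule also keeps every bull at 0.5 or more, which limits how far bulls can part at a member, so the later comparisons between groups and sessions are read with that limit. The value ranks regions of an array by how much of their DNA the antibody bound, which does not give the fraction of cytosines methylated.

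In mature sperm most of the genome carries methylated CpGs, while CpG islands and the promoters of housekeeping and developmental genes are largely free of methylation. Methylated cytosine mutates readily, so regions methylated in the germ line lose CpGs over evolution, and CpG-rich sequence is usually sequence that stays unmethylated there. A few imprinted regions, among them the one that controls the gene cluster holding RTL1, receive their methylation in the male germ line and are methylated in sperm. meDIP pulls down a whole fragment, so a probe also reads CpGs that lie outside its own bases.

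The 228 probes are 60 bases long and carry 228 different sequences. Coordinates are printed as the deposited files give them, counted from 1, with autosomes numbered 1 to 29. Their genome build is not stated by those files or the labels, which also name no exon, intron or promoter class for a probe. The numbering to 29 is that of cattle, the species named by the array design. Whether the positions and probe letters hold for the buffalo genome was not settled. The 9 enriched probes that the files name after a gene are shown first, because they tie the set to genes. Capitals mark CpG sites, and each sequence is the probe as deposited, written 5′ to 3′.

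RTL1, chr21:65867342-65867401: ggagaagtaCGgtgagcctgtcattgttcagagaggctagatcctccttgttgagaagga
CBX8, chr19:54289818-54289877: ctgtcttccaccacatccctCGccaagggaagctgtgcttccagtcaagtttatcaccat
IFT57, chr1:55412691-55412750: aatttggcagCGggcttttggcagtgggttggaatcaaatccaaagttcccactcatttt
YTHDC1, chr6:86793135-86793194: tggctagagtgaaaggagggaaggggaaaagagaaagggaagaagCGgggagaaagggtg
BCAS2, chr3:31205446-31205505: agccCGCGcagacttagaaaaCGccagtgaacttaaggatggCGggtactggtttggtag
CDH7, chr24:11364635-11364694: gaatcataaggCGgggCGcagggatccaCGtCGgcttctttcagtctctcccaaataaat
PPM1L, chr1:108278577-108278636: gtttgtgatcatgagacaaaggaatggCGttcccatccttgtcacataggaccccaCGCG
SLC13A1, chr4:90541866-90541925: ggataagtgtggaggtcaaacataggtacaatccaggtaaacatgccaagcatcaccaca
IL1RAP, chr1:78246737-78246796: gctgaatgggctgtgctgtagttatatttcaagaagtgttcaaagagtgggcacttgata

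The next sequences have no gene name. The first is the region with the most enriched probes, rich in CpGs, and the second is a region of 6 enriched probes without any. The other 3 are among the unnamed probes with the highest value in their lowest bull, and regions of more than 1 probe were joined from their overlapping probes. Capitals again mark CpG sites.

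chr24:52387250-52387392: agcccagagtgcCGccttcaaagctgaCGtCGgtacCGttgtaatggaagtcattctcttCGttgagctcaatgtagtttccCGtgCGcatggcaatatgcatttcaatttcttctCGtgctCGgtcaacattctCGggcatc
chr6:70286176-70286263: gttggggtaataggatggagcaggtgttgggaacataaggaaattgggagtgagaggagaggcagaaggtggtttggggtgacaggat
chr18:46199343-46199402: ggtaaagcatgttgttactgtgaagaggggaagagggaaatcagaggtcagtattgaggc
chr27:27692132-27692191: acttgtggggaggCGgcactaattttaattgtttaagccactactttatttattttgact
chr2:90211480-90211539: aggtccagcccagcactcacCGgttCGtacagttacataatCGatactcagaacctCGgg

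The last 4 are shown because they carry simple repeats and, as described further on, most of them gave very bright input signals. Here capitals mark runs of CA with at least 4 units or of CAC with at least 3.

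chr6:119124266-119124351: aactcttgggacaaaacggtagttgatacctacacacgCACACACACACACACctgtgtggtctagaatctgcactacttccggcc
chr19:50380536-50380622: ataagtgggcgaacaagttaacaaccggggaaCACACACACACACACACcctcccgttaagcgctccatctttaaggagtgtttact
chr13:40594582-40594655: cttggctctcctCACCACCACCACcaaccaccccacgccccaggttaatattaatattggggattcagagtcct
chr25:43004938-43005017: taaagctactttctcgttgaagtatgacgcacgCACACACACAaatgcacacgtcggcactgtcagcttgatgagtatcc

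Member medians were 1.01, 0.86 and 1.11 in HF2, HF3 and HF5 and 0.88, 1.005 and 1.27 in SF1, SF4 and SF5. All eligible probes had medians of -0.30, -0.26 and -0.01 in the high-fertile bulls and of -0.02, -0.21 and -0.10 in the subfertile bulls. Over the 6 bulls, a member's mean value ranged from 0.58 to 1.96 with a median of 1.10. Members were not even across bulls: the highest and lowest bull of a probe lay a median of 0.93 apart, and 5 of the 228 reached 1 in every bull. HF3 was the lowest bull at 64 members and SF1 at 53, while SF5 was the lowest at 16. The most even members were chr24:11364638-11364697, with an SD of 0.10 over the 6 bulls, and the YTHDC1 probe, also with an SD of 0.10. The chromosome 24 probe lay at percentile 99.2 of input signal. It overlaps the CDH7 probe, which was less even, with an SD of 0.36. The highest mean, 1.96, was at chr19:39397462-39397521, where HF3 stood at 3.53 and HF5 at 0.74.

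Input DNA was well above background at 69.0% to 95.5% of all 177440 non-control probes of an array, and IP DNA at 37.6% to 85.2%. Scan dates put HF2, HF3 and SF4 in a first session and HF5, SF1 and SF5 on later dates, so each session held bulls of both groups. The later session here means any scan date after the first. Session and slide were not the same split: SF1 lay on slide 1 with HF2, HF3 and SF4, while HF5 and SF5 lay on slide 2. The SF1 header also named another protocol, as given with the processing. Across eligible probes, arrays of the same session correlated at 0.34 to 0.80 and arrays of different sessions at 0.13 to 0.29. Across the 228 members these ranges were 0.42 to 0.78 and -0.35 to 0.04, and probes are not independent replicates. The rule asked nothing of the IP channel's brightness, and 67 members had IP DNA below the well-above-background call on at least 1 array. IP DNA was well above background on all 6 arrays at the other 161 (70.6%), against 54.0% of eligible probes. No member spot was saturated. The marker genes of sperm and male germ line (16 eligible probes), leukocytes (6) and epithelium (17) held no enriched probe, and since the assay reads DNA these are regions, not expression levels.

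The members formed 155 regions when probes with starts up to 500 bp apart were joined, and 128 of these regions were a single probe. The region with the most enriched probes was chr24:52387250-52387392, where all 15 eligible probes were enriched. These 15 probes carry 3 to 5 CpGs each, and the 143 bases they cover hold 10. Their medians were 1.39, 2.12 and 0.78 in HF2, HF3 and HF5 and 0.95, 2.24 and 0.93 in SF1, SF4 and SF5. The 3 first-session bulls were higher than the 3 later ones, and bulls of the 2 fertility groups overlapped. Neighbouring probes tracked each other within a bull: HF3 stayed between 1.61 and 2.31 and SF1 between 0.71 and 1.15 over the region. The files give this region no gene name.

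Another tiled region, chr6:70286176-70286263, held 6 enriched probes of 8 eligible and no CpG at all. Its medians were 0.78, 0.80 and 1.10 in the high-fertile bulls and 1.17, 0.998 and 1.28 in the subfertile bulls. Its values were flatter than those on chromosome 24, and the later session was here slightly above the first. Its printed strand is rich in purines (A and G), as are those of the YTHDC1 probe, with 90% purines, and of chr18:46199343-46199402. A share of 70% or more purines on either strand was found in 33 members (14.5%, in 20 regions) and in 5.38% of eligible probes. This property was chosen after the sequences had been seen. All 5970 eligible probes with it had a median of -0.06, beside -0.15 for all eligible probes. The gap was larger in the first-session bulls HF2, HF3 and SF4, at -0.18, -0.05 and -0.06 beside -0.30, -0.26 and -0.21. In HF5, SF1 and SF5 these medians were 0.002, 0.01 and -0.05 beside -0.01, -0.02 and -0.10. Another CpG-free run, chr14:33892024-33892092, had 3 of 3 eligible probes enriched, with medians of 1.06, 1.03 and 0.68 in HF2, HF3 and HF5 and of 0.80, 0.77 and 0.55 in SF1, SF4 and SF5.

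The chromosome 6 region chr6:26773074-26773175 had 5 of 8 eligible probes enriched, with 5 CpGs in its 102 bases. Its medians were 1.07, 2.35 and 0.75 in HF2, HF3 and HF5 and 1.04, 0.87 and 1.23 in SF1, SF4 and SF5, with the HF3 median well above the rest. SF4 was uneven over the region, from 0.51 to 2.88, and at chr6:26773074-26773133 it read 2.88 beside 2.87 in HF3. Among regions with 3 or more enriched probes, the medians of the highest and lowest bull lay 1.93 apart at chr25:28718637-28718705, where all 3 eligible probes were enriched; only chr19:39397441-39397521 was wider, at 2.55. Its medians reached 2.49 in HF5 and 2.70 in SF5, and were 0.97, 0.77, 1.15 and 0.79 in HF2, HF3, SF1 and SF4. HF5 and SF5 share a slide and were both scanned on later dates, but they differ in fertility group.

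A few probes were high in every bull. The CpG-free probe chr18:46199343-46199402 read 1.04, 1.43 and 1.28 in HF2, HF3 and HF5 and 1.28, 1.48 and 1.34 in SF1, SF4 and SF5, a range of 0.44. The second enriched probe of that region, 12 bases further at chr18:46199355-46199414, was less even, at 1.53, 0.85 and 0.95 in the high-fertile bulls and 0.59, 0.61 and 0.96 in the subfertile bulls. The probe chr2:90211480-90211539, with 4 CpGs, read 1.14, 1.61 and 1.12 in the high-fertile bulls and 1.11, 1.02 and 1.06 in the subfertile bulls. It lay at percentile 14.4 of input signal, and its IP was well above background on 5 of the 6 arrays. Its high-fertile bulls were all above the subfertile bulls, by 0.0062 at the closest pair. Together with the chr27:27692132 probe, a CBX8 neighbour and a CAC-repeat probe, these were the 5 members at 1 or more in all bulls.

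Simple repeats formed a group of their own. The run CACACACACA, on either strand, was present in 19 members (8.33%, in 5 regions) and in 398 eligible probes (0.359%). CACCACCACC was present in 6 members (2.63%, in 2 regions) and in 56 eligible probes (0.0505%). Of the eligible holders, 4.77% of the first run and 10.71% of the second were enriched, against 0.206% of all eligible probes, and the holders had medians of 0.15 and 0.36. The shorter run ACGCAC, a CpG flanked by such bases, was in 23 members (10.1%) and in 2.35% of eligible probes, whose median was -0.11. All 3 runs were chosen after the sequences had been seen, and a match is a description of the letters.

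The CA-repeat region chr6:119124266-119124351 had 6 of 7 eligible probes enriched, with medians of 1.72, 1.03 and 1.83 in HF2, HF3 and HF5 and of 0.75, 1.23 and 1.54 in SF1, SF4 and SF5. A similar region, chr19:50380536-50380622, had 6 of 6, with 1.29, 0.97 and 1.52 in the high-fertile bulls and 0.72, 1.11 and 1.42 in the subfertile bulls. In both, SF1 was lowest and HF5 was the highest bull. The CAC-repeat region chr13:40594582-40594655 had 4 of 4 enriched and was more even, between 0.99 in HF3 and 1.55 in SF4.

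These repeat regions were also among the brightest input spots of the array. Members were spread unevenly over input brightness: 2.79% of the 1110 eligible probes in the top 1% of input signal were enriched, against 0.361% in the lowest 10% 0.349% from percentile 10 to 25, 0.173% to percentile 50, 0.0793% to 75, 0.0902% to 90 and 0.140% to 99. The 31 bright members came from 10 regions on 7 chromosomes, with log2 input signals of 12.90 to 17.11 beside an eligible median of 10.63. CACACACACA was in 16 of the 31 and in 105 of the 1110. Their IP signal was well above background on every array. A bright region without a repeat was chr22:61265728-61265808, with 5 of 6 eligible probes enriched, 1 CpG and medians of 1.08, 0.63 and 2.19 in HF2, HF3 and HF5 and of 1.75, 1.57 and 2.41 in SF1, SF4 and SF5. At the other end, 98 members lay in the dimmest 25% of input signals. The part of input brightness in the enrichment was not tested.

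Enriched probes held fewer CpGs than the array as a whole. They had a median of 2 CpGs (mean 2.21), against 3 (mean 2.82) among eligible probes, and a median GC content of 50% against 51.7%. The enriched share fell with each added CpG, from 0.450% of probes with none (21 of 4666) to 0.341% with 1, 0.223% with 2, 0.193% with 3, 0.135% with 4, 0.0838% with 5 and 0.0335% with 6 (1 of 2983). None of the 670 eligible probes with 7 or more CpGs was enriched. Members with 0 or 1 CpG numbered 73 (32.02%, eligible 17.97%), and members with 4 or more numbered 37 (16.2%, eligible 30.7%). At least 1 CpG was present in 207 of the 228, or 90.8% (exact Clopper-Pearson 95% interval 86.3% to 94.2%, which treats overlapping probes as independent), beside 95.8% of eligible probes.

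Counting only the best probe of each region, the share was 0.257% without CpG, 0.242% with 1 and 0.140% with 3. The order also held within every band of input brightness examined: among the dimmest 25%, 0.474% of probes with 0 or 1 CpG were enriched, 0.377% with 2 or 3 and 0.179% with 4 or more. In the brightest 1% these shares were 5.76%, 2.92% and 1.08%. They rest on 11, 16 and 4 enriched probes. These 31 came from 10 regions, so a site with several overlapping probes counts several times. The scan sessions differed in the relation of CpG count to enrichment. All 3 first-session bulls were at 0.5 or more at 7.07% of CpG-free probes, 1.79% of those with 2 CpGs and 0.966% of those with 4. In the later session the shares were 7.14%, 9.07% and 7.91%. At 6 CpGs they were 0.805% in the first and 4.99% in the later session. The excess of CpG-free members was thus measured in the first-session arrays, and the later arrays had no such excess of CpG-free over 2-CpG probes. The first-session arrays were also those with fewer spots above background, and the part of signal strength in this relation was not tested.

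Members were found on 26 of the 29 numbered autosomes. The highest shares were on chromosome 24, with 18 members in 3 regions (0.604% of its eligible probes), and chromosome 6, with 22 in 7 regions (0.560%). On both, long tiled regions made up much of the count. Chromosomes 13 and 25 held the most separate regions, 11 each, with 18 and 17 members (0.357% and 0.364%). None lay on chromosomes 7, 8 and 9, which had few eligible probes (349, 113 and 98). Within 5 Mb of the last probe of a chromosome lay 65 members (28.5%), against 20.4% of eligible probes, and within 5 Mb of its start lay 9 (3.95%, eligible 5.21%).

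A gene name was attached to 9 members (3.95%) and to 7628 eligible probes (6.88%). No gene had more than 1 enriched probe under its own name. Of the 16 gene lists examined, 5 held an enriched probe. These were paternally marked imprinted genes (RTL1, 1 of 22 eligible probes), chromatin modifiers (CBX8, 1 of 68), solute carriers (SLC13A1, 1 of 133), cell adhesion (CDH7, 1 of 120) and immune genes (IL1RAP, 1 of 66). Over all named probes the share was 0.118%. None was found among 301 probes of homeobox, paired-box and related developmental regulators, 172 of zinc finger genes, 154 of ubiquitin and proteasome genes, 136 of ion channels, 85 of WNT, TGF-beta, FGF and Notch signalling, 83 of microRNAs and 76 of ribosomal proteins and translation factors. None was found either among 38 probes of sperm structure genes, 31 of maternally marked imprinted genes, 15 of germline genes and 1 of an olfactory receptor. At the overall rate each of these lists would hold less than 1 enriched probe, so a list without any is not a result about the list.

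RTL1, a retrotransposon-derived gene expressed from the paternal chromosome and needed in the placenta, had its enriched probe at chr21:65867342-65867401. It read 0.84, 0.59 and 1.23 in HF2, HF3 and HF5 and 0.96, 0.79 and 0.76 in SF1, SF4 and SF5. The bulls were close together (SD 0.22) and the groups overlapped. Its surroundings read alike: the 10 eligible probes sharing at least 30 bases with it had a median of 0.69 (0.59 to 0.86), and all 16 eligible probes within 500 bp had means above 0. None of those was itself a member, since at least 1 bull lay below 0.5 at each. A second spot of the very same sequence, not counted among those probes, had a mean of 0.66. It read 0.36, 0.16 and 0.35 in HF2, HF3 and SF4, so the call in all 6 bulls at RTL1 was not repeated by this spot. At the RTL1 probe 20 bases further, chr21:65867362-65867421, the mean was 0.86 but HF3 stood at 0.28. The other 9 eligible RTL1 probes, from chr21:65866502 to chr21:65869241, had means from -0.26 to 0.16, so the enrichment covered a short stretch of the tiled gene.

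CBX8, a Polycomb group protein that reads a repressive histone mark, had its enriched probe at chr19:54289818-54289877. It read 1.52, 1.96 and 1.23 in HF2, HF3 and HF5 and 0.75, 1.37 and 2.17 in SF1, SF4 and SF5, with SF5 highest and SF1 lowest. It overlaps 2 enriched unnamed probes, and of these the probe at chr19:54289823-54289882 had the highest lowest-bull value of all members, 1.15 in SF1. The CBX8 probe was dim, at percentile 2.87 of input signal, and its IP was well above background on 4 of 6 arrays. Around it the sequence was not enriched: the other CBX8 probes had means of -0.39, -0.45 and -0.53, and the 32 eligible probes within 500 bp had a median of -0.44.

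IFT57, a component of the intraflagellar transport machinery that builds cilia and flagella, read 0.59, 0.88 and 2.41 in HF2, HF3 and HF5 and 1.24, 0.72 and 3.54 in SF1, SF4 and SF5 at chr1:55412691-55412750. The 3 later-session bulls were the 3 highest. No eligible probe lay within 500 bp, and the other eligible IFT57 probes had means of -0.22 and 0.01.

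YTHDC1, a nuclear protein that binds methylated adenosine in RNA, had the lowest mean of the named members, 0.64, at chr6:86793135-86793194. Its values were 0.54, 0.67 and 0.56 in the high-fertile bulls and 0.61, 0.63 and 0.80 in the subfertile bulls. Overlapping probes had a median of 0.50, and 1 of these 7 was itself enriched.

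BCAS2, a component of the spliceosome, read 1.63, 3.19 and 0.55 in HF2, HF3 and HF5 and 0.52, 1.62 and 0.70 in SF1, SF4 and SF5 at chr3:31205446-31205505. The first-session bulls were the 3 highest. All 23 eligible probes within 500 bp had means above 0, with a median of 0.68. Such means can hide bulls below 0. The BCAS2 probe chr3:31205352-31205411, with a mean of 0.66, read 0.83, 2.34 and 1.37 in HF2, HF3 and SF4. In HF5, SF1 and SF5 it read -0.48, -0.09 and -0.03. The remaining eligible BCAS2 probe, chr3:31205426-31205485, had a mean of 0.67 and was above 0 in every bull.

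CDH7, a cadherin of cell adhesion, read 0.92, 1.39 and 0.96 in the high-fertile bulls and 0.94, 1.80 and 0.97 in the subfertile bulls at chr24:11364635-11364694. HF3 and SF4 were highest, and the other 4 bulls lay within 0.05 of each other. Its input signal was at percentile 98.1. It was the only eligible probe of the 4 that carry this name, and the overlapping unnamed probe already given as the most even member was enriched as well.

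The 3 remaining genes rested on single probes with no eligible probe within 500 bp. PPM1L, a membrane-bound protein phosphatase, read 1.19, 3.16 and 0.69 in HF2, HF3 and HF5 and 0.72, 2.62 and 0.75 in SF1, SF4 and SF5 at chr1:108278577-108278636. Its other 5 eligible probes, from chr1:108513295 to chr1:108513674, had means from -0.54 to 0.13. SLC13A1, a sodium-sulfate transporter of the kidney and gut, read 2.05, 2.67 and 0.62 in the high-fertile bulls and 0.86, 1.93 and 0.88 in the subfertile bulls at chr4:90541866-90541925. IL1RAP, the accessory protein of the interleukin-1 receptor, read 1.55, 1.78 and 0.50 in HF2, HF3 and HF5 and 1.27, 0.84 and 0.97 in SF1, SF4 and SF5 at chr1:78246737-78246796. In PPM1L and SLC13A1 the first-session bulls were the 3 highest, whereas in IL1RAP the sessions overlapped. The SLC13A1 and IL1RAP probes contain no CpG.

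Most members had an overlapping probe that could show whether the reading carried over to shifted sequence. Eligible probes sharing at least 30 bases were present for 213 members, and for 98 of them at least 1 was also enriched. Unlike at RTL1 above, second spots of a member's own, unshifted sequence, of which there were 3, are counted here among the overlapping probes. The 735 overlapping probes that were not members had a median of 0.54, and 92.1% had a mean above 0, against 35.8% of eligible probes. They were above 0 in all 6 bulls at 40.8%, against 4.95%. These probes share sequence with the members, so this is not an independent reading. The 949 eligible probes within 500 bp that shared no bases with a member had a median of 0.02, against -0.15 for all eligible probes, and 9.38% of them had a mean of 0.5 or more against 5.64%. Medians of the 735 overlapping probes were 0.28, 0.27 and 0.24 in the first-session bulls HF2, HF3 and SF4. In the later-session bulls HF5, SF1 and SF5 they were 0.79, 0.60 and 0.80. Raised values were mostly seen in the overlapping sequence. Fragments of 300 to 1000 bp were hybridised per the labels, and why values were much lower at nearby probes without shared bases was not tested.

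Each bull was also left out in turn, and the probes past the threshold in the other 5 were read in it. Probes chosen on the other 5 bulls were at 0.5 or more in the left-out bull at 91.2% (SF5), 77.6% (HF5), 66.5% (SF1), 54.7% (SF4), 48.3% (HF2) and 42.1% (HF3). Among all eligible probes the shares were 15.9%, 18.5%, 12.96%, 10.3%, 9.51% and 11.1% in the same order. The probes that passed were the same 228 members each time, so each share reflects how many probes the other 5 bulls chose. Those 5 always included arrays of the left-out bull's own session, so this is not an independent reading. Across sessions the carry-over was small. Of the 2010 probes at 0.5 or more in all 3 first-session bulls, 228 (11.3%) were so in all 3 later bulls, against 8.16% of eligible probes. Of the 9048 chosen on the later bulls, the same 228 (2.52%) passed in all 3 first-session bulls, against 1.81%. Most probes that stood out in a session therefore did not do so in the other.

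The threshold fell in a continuous range of values. The members just inside it were chr1:988124-988183, lowest in HF2 at 0.5002, chr25:41329705-41329764, lowest in HF3 at 0.5004, and the IL1RAP probe, lowest in HF5 at 0.5009. Just outside were the spot named SEC14L5 at chr25:4638961-4639020, lowest in HF3 at 0.4995, chr17:18673341-18673400, lowest in HF2 at 0.4990, and chr22:61594590-61594649, lowest in HF2 at 0.4984. A further 949 eligible probes passed in 5 of the 6 bulls.

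For 3 members the array carried a second eligible spot of the same sequence, and in none of the 3 did that spot meet the rule. The SEC14L5 spot is the second spot of an unnamed member, which was lowest in HF3 at 0.5043, and their means were 0.92 and 0.94. The second spot of the RTL1 sequence read 1.21, 0.87 and 0.998 in the later-session bulls HF5, SF1 and SF5, above the threshold, and below it in the 3 first-session bulls. The second spot of the unnamed member chr3:18148839-18148898 is named CHTOP and read -0.24 in HF2, where the member read 1.19, with means of 0.71 and 1.08. These 3 were singled out after their values had been seen.

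The fertility groups were set against each other in a limma fit of 110686 probes. It included 227 of the members, since 1 had a non-uniformity flag. No member was called at an adjusted p below 0.05, and the share called among all tested probes was 0%. At an unadjusted p below 0.05 there was 1 member (0.441%), against 1.84% of tested probes. In the fitted values, the 3 bulls of a group lay entirely beyond the 3 of the other at 7 members (3 with the high-fertile bulls higher, 4 with the subfertile bulls higher), or 3.08%. Among all tested probes this share was 5.78%, made up of 2.58% with the high-fertile bulls higher and 3.2% with the subfertile bulls higher. In the series table, whose column medians differ slightly, there were 8 such members of 228, 4 in each direction. The median difference, high-fertile minus subfertile, was -0.03 over the members and -0.09 over all tested probes, with a median standard error of 0.34 for a member. Since the rule that chose the members limits how far their bulls can part, nothing is read from these shares being lower than among all probes. Fitted differences of up to 1.11 were not called with 3 bulls a group, and the absence of calls does not show that the groups were alike.

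The member with the smallest unadjusted p was chr27:27692132-27692191, at 3.25, 2.90 and 1.26 in HF2, HF3 and HF5 and 1.06, 1.37 and 1.68 in SF1, SF4 and SF5. HF2 and HF3 were the highest bulls, while HF5 lay among the subfertile bulls. The probe was very dim, at percentile 0.865 of input signal. The fitted difference was 1.11 with a standard error of 0.49, and within the later session it was -0.11. The next members with higher values in high-fertile bulls were chr5:116184271-116184330, at 0.82, 1.33 and 0.83 against 0.55, 0.51 and 0.54 (difference 0.47), and chr10:22531597-22531656, with a difference of 0.94 that was carried by HF3 at 3.32. Those with higher values in subfertile bulls were 2 probes of the bright region on chromosome 22, chr22:61265741-61265800 and chr22:61265737-61265796, with differences of -0.84 and -0.70. The third was chr2:92338056-92338115, at 1.05, 1.13 and 0.78 against 1.23, 1.59 and 1.65 (difference -0.49). The adjusted limma p was 0.99998 at all 6. IP was well above background on 4 of the 6 arrays at the chromosome 5 probe, which lay at percentile 6.43 of input signal. It was so on 5 arrays at the chromosome 10 and chromosome 2 probes. At the 9 named probes the differences ran from -0.53 (IFT57) to 0.85 (BCAS2), none with an unadjusted p below 0.185.

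In a limma fit of session and group together, 16 of the 227 members (7.05%) differed between sessions at an adjusted p below 0.05, against 8.08% of all tested probes. Of these, 7 were higher in the later session (3.08%, tested probes 6.5%) and 9 were lower (3.96%, tested probes 1.58%). The rule used the same ratios, so these shares describe the members and are not evidence of a difference from other probes. Those lower in the later session were 5 probes of the chromosome 24 region, 3 of the region at chr19:39397441-39397521 and the SLC13A1 probe. SLC13A1 differed by -1.37, later minus first (standard error 0.29, adjusted p = 0.0372). The chromosome 19 region had medians of 1.63, 3.15 and 2.64 in the first-session bulls HF2, HF3 and SF4 and of 0.60, 1.001 and 1.04 in HF5, SF1 and SF5. The largest rise was at chr3:100522697-100522756, which read 0.66, 0.58 and 0.71 in HF2, HF3 and SF4 and 2.84, 1.75 and 2.92 in HF5, SF1 and SF5 (difference 1.96). In the table values, 30 members (13.2%) had all first-session bulls above all later ones, against 8.4% of eligible probes. The reverse was found at 46 (20.2%), against 30.3%, and neither at 152. In the limma interaction of group and session, 0 members were called and 5 (2.20%) were at an unadjusted p below 0.05, against 4.85% of tested probes.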

How the data were processed

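Spot tables hold scanner intensities on a linear scale, deposited by the authors and extracted with Agilent Feature Extraction 10.7.3.1, per the file headers. The deposited log10 ratio of a spot is IP (red) over input (green), and the deposited series table gives the same ratio on the log2 scale, uncentred; a comparison with the scanner files showed this. The header of SF1 names another protocol (CGH) than the other 5 (ChIP). No step was taken against the dye effect, as dyes were not swapped.

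Values per bull are the series table's log2 ratios minus each column's median over all its probes. Eligible probes were autosomal, non-control, and well above background in the input channel on all 6 arrays. For the group comparison, log2(IP/input) from the processed signals was centred on each array's median and fitted with limma 3.58.1 in R 4.3.3 (lmFit, eBayes, 2-sided, Benjamini-Hochberg over 110686 probes), so differences can depart slightly from those of the printed values. The fit was tested on simulated data with independent noise, no session effect and shifts larger than the member differences printed here. That test does not cover smaller differences or session effects. CpGs were counted in the deposited probe sequences. Intervals cover counting error only, and the 6 bulls limit precision.

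The members and lists were chosen with earlier results of these data known. Named were genes with enriched probes, the 5 unnamed probes with the highest lowest bull, the regions with the most enriched probes, list members, the 3 smallest unadjusted p-values per direction, and probes beside the threshold. Of the 9 gene names, 8 were found in the gene table of RefSeq for the buffalo assembly NDDB_SH_1, used for names only. Alternatives were other centring, thresholds, filters, background correction, blocks, sessions and left-out bulls. Python 3.11.15, pandas 2.3.3, numpy 2.4.6, scipy 1.17.1, data.table (version 1.17.8) and matplotlib 3.10.9 were used.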

Additional observations from a re-analysis of the deposited data

How the results depend on the processing

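The 228 members became 764 when columns were centred on the eligible probes, 48 at a threshold of 0.75, 5 at a threshold of 1, 2010 on the first session alone and 9048 on the later one, and 250 to 541 with a bull left out. Scanner signals gave 209, an added IP filter 161 and a filter on outlier flags 227. The share with at least 1 CpG was 94.8%, 80.0%, 83.6% and 96.3% with that centring, at a threshold of 1, and on the first and later session, and 89.1% to 94.1% with a bull left out. No member was called between fertility groups in any of 13 alternative fits. Over all tested probes 34 were called within the later session. At an unadjusted p below 0.05 there were 0 to 12 members with a bull left out, the most without HF5 (5.29%, all tested probes 11.4%). There were 3 with slide as a block (1.32%, all 2.90%), 3 and 9 within the first and later session (1.32% and 3.96%, all 3.95% and 6.28%), 0 without the filter on dim probes (all 2.34%) and 9 with normexp (3.96%, all 2.11%). Unlike these counts, differences at named probes, none of them called, changed sign in several fits. With session as a block IFT57 was 0.0384 and PPM1L -0.226. In the first session IFT57 was 0.0585, PPM1L -0.408, YTHDC1 0.0144 and RTL1 -0.0333. In the later session BCAS2 was -0.0621, SLC13A1 -0.251, IFT57 0.0183, IL1RAP -0.622, PPM1L -0.0432, CDH7 0.00484, CBX8 -0.224, chr27:27692132 -0.112 and chr10:22531597 -0.00419. With normexp IL1RAP was -0.120, PPM1L -0.0137, CBX8 -0.0822 and RTL1 -0.139. With a bull left out the range was -1.10 to 0.334 for IFT57, -0.000239 to 0.641 for IL1RAP, -0.417 to 0.937 for PPM1L, -0.290 to 0.128 for CDH7, -0.179 to 0.528 for CBX8 and -0.113 to 0.207 for RTL1. The cause of these changes was not tested. A group with 1 bull in a session borrows its spread from the other group. The median of neighbouring probes was 0.07 within 200 bp and -0.04 within 1000 bp. No paired analysis was possible because the groups share only the replicate number 5.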

Other observations

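On the X chromosome, outside the autosomal rule, 47 of 218 probes had input well above background on all 6 arrays, and 1 of them was at 0.5 or more in every bull. This probe, chosen after its values were seen, is named after FOXO4, a forkhead transcription factor, lies at chrX:49339347-49339406 and contains no CpG. It read 1.15, 2.53 and 1.19 in HF2, HF3 and HF5 and 1.76, 0.90 and 1.71 in SF1, SF4 and SF5. Of 158 probes on unplaced sequence 21 were bright enough and none met the threshold. A further 270 autosomal probes were at 0.5 or more in every bull but failed the input filter on at least 1 array. The few probes for chromosomes 7, 8 and 9 (1006, 483 and 456 on the array) passed the input filter at 34.7%, 23.4% and 21.5%, against 59.6% for chromosome 1 and 67.7% for chromosome 18.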
